A study of Mus musculus with 21 samples.

Results

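The genes described here are 9 transcription factors of pancreatic and foregut identity, namely Pdx1, Sox9, Onecut2, Hnf4a, Foxa1, Foxa2, Gata6, Klf5 and Nr5a2. They were found by their symbols in the deposited table of normalized counts, which lists 34478 genes, and all 9 symbols were present. Of the 9, 8 reached at least 10 normalized counts in at least 3 samples and were tested with the 19300 genes that did so. Nr5a2 did not reach this minimum and is given by its values.

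RNA was sequenced from 6 primary cell lines of mouse pancreatic cancer, numbered #3, #4, #6, #7, #9 and #10. Each line was taken in a drug-naive state (parental), in a state that grew in 100x its IC50 of trametinib after stepwise dose increases and was kept in that dose (resistant), and after 12 passages in medium without the drug (P12). Lines #3, #7 and #9 were also taken after 5 such passages (P5), which gave 6 parental, 6 resistant, 3 P5 and 6 P12 samples. There was 1 library per line and state. The replicates are therefore the lines. In the main fit samples of the same line are treated as independent, and its p-values measure the spread between lines within the states. With the cell line as a block, the p-values measure how much the differences between states vary from line to line.

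Trametinib inhibits the kinase MEK. All 21 samples share the alleles Ptf1a wt/Cre and Trp53 loxP/loxP, with Cre made from the Ptf1a locus of the pancreatic lineage. The titles of the P5 samples give 5 passages, but the descriptions of P5 from lines #7 and #9 give 12, and the name P5 is kept here for all 3. The clonal make-up of the lines was not analysed here.

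Pdx1, Sox9, Onecut2, the Foxa factors and Gata6 act in the foregut endoderm and in pancreatic progenitors, where they establish the pancreas and later its ducts, endocrine cells and acini. Hnf4a, Klf5 and Nr5a2 belong to the transcriptional network of mature gut, liver and pancreatic epithelium. In pancreatic cancer several of these factors mark tumors that keep an epithelial, gland-forming phenotype and are low in tumors of mesenchymal or squamous phenotype.

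Depth allowed most of the factors to be read in every sample. The spacing of low values, taken as 1 read per step, gave an estimate of 24.1 to 42.7 M reads per sample, with a median of 34.9 M in parental, 32.0 M in resistant, 32.5 M in P5 and 32.1 M in P12 samples, and the total per sample lay between 2.86e+07 and 3.71e+07 normalized counts. A floor of 3 reads corresponded to 2.31 to 4.07 normalized counts, and it covers counting error only. Of the low values of a sample, 57.8% to 73.9% lay on whole steps of 1 read, so the floor is approximate and can differ between genes, and so can the bounds that rest on it. Values below the floor are given as values, with no fold change, and a fold against a sample at 0 is a lower bound set against that sample's floor.

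**Figure D1:**
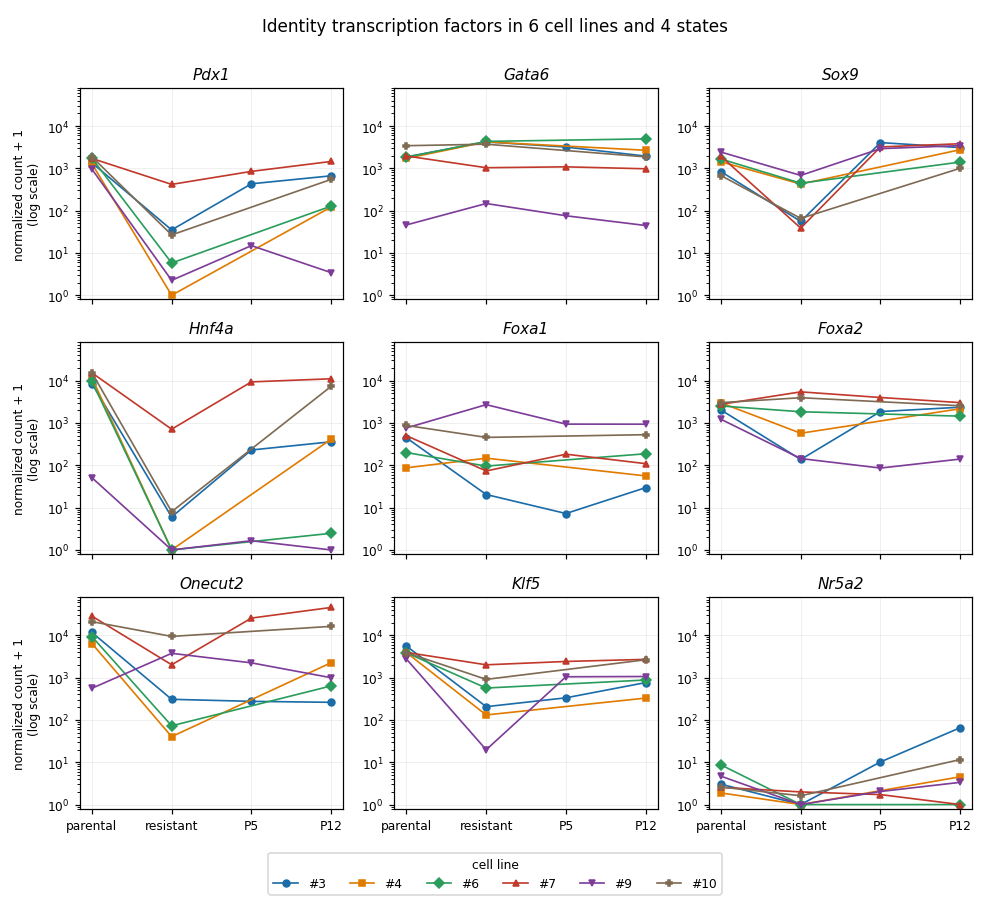
Normalized count plus 1 of the 9 transcription factors on a log axis in the parental, resistant, P5 and P12 states, with 1 line of points per cell line. Sox9 returned to 1002 to 3813 at P12 in all 6 lines, while Hnf4a at P12 ranged from 0 in line #9 to 11090 in line #7.

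Drug resistance was addressed by setting the 6 resistant samples against the 6 parental samples. In the resistant samples 3 of the 8 tested factors fell, Pdx1, Sox9 and Klf5, and none rose. Calls were made with limma and needed an adjusted p under 0.01 together with more than a doubling or halving, on the scale of log2 of the normalized count plus 1, which understates changes of low values. Over all genes tested, the same rule called 2.73% lower and 2.57% higher. With the cell line as a block 4 factors were lower, as Hnf4a joined them, beside 5.60% of all genes lower and 4.85% higher. At an unadjusted p below 0.05 there were 5 factors, those 4 and Onecut2, all lower, beside 29.2% of all genes in either direction. The median log2 fold change of the 8 factors was -3.35, against -0.00 for all genes tested. Parental and resistant values did not overlap for 2 factors, Pdx1 and Klf5, and 3.16% of all genes were lower in this way. The count of 3 depended on single lines, since it was 0 without line #3 or #10, 1 (Sox9) without line #4 or #6, and 3 without line #7 (Pdx1, Hnf4a and Klf5) or #9 (Pdx1, Sox9 and Hnf4a). When the fit held the parental and resistant samples alone, Pdx1 and Hnf4a were called and Sox9 (limma adjusted p = 0.0157) and Klf5 (0.0143) were not.

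Pdx1, the homeobox factor without which no pancreas forms (ENSMUSG00000029644.7, chr5:147269959-147275848, plus strand, GRCm38), ranged from 955 to 1868 normalized counts in parental samples with a median of 1529. In resistant samples it ranged from 0 to 416 with a median of 15.2. Line #7 held the highest resistant value, lines #3 and #10 had 34.0 and 25.7, line #6 had 4.79, line #9 had 1.25 and line #4 had 0, so the states did not overlap. Within lines Pdx1 was 4.11-fold lower in line #7, 39.5-fold in #3, 72.8-fold in #10 and 360.2-fold in #6, and at least 315-fold lower in #4. Pdx1 fell by 6.78 on the log2 scale (SE 1.43, n = 6 and 6, limma adjusted p = 0.00362), lower in 6 of 6 lines. In bulk RNA, fewer cells that make a transcript and less of it per cell cannot be told apart, here and for every other gene.

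Sox9, a factor of pancreatic progenitors and of adult duct cells (ENSMUSG00000000567.5, chr11:112782224-112787760, plus strand), ranged from 673 to 2421 in parental samples with a median of 1541. Its resistant values ran from 37.6 to 679 with a median of 244. The groups touched at a single point, as resistant line #9 at 679 lay just above parental line #10 at 673, and all other resistant samples were lower than all parental samples. The within-line folds were 3.36 in line #4, 3.57 in #9, 3.73 in #6, 10.4 in #10, 15.3 in #3 and 51.0 in #7. Line #7, which kept the most Pdx1 in the resistant state, thus held the least Sox9 there. Sox9 fell by 3.06 on the log2 scale (SE 0.62, limma adjusted p = 0.0029).

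Klf5, a zinc finger factor of proliferating gut and duct epithelium (ENSMUSG00000005148.8, chr14:99298691-99315036, plus strand), was the most uniform of the tested factors in the parental state on the log2 scale, with an SD of 0.32 there. It ranged from 2749 to 5574 in parental samples (median 3904) and from 18.8 to 2011 in resistant samples (median 386). Resistant lines #7 and #10 kept 2011 and 909.7, lines #6, #3 and #4 had 568, 205 and 130.3, and line #9 had 18.8, so all 6 lay below every parental sample. The fold within a line was 1.96 in #7 and 146 in #9. Klf5 fell by 3.77 (SE 0.82, limma adjusted p = 0.00477), lower in 6 of 6 lines.

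Hnf4a, a nuclear receptor that drives hepatic and intestinal epithelial genes (ENSMUSG00000017950.16, chr2:163506808-163572910, plus strand), ranged from 50.04 to 15463 in parental samples with a median of 10673. In resistant samples it was at 0 in lines #4, #6 and #9, at 5.02 in #3, at 7.01 in #10 and at 713 in #7. Parental line #9, at 50.04, was far below the 8546 to 15463 of the other parental samples, and this value is why the states overlapped with resistant line #7. Hnf4a was at least 2862-fold lower in line #4 and at least 2698-fold in #6, 1703-fold lower in #3, 2207-fold in #10 and 21.5-fold in #7. The log2 fold change of -9.71 was the largest among the 8 factors, but its SE was 2.48 and its limma adjusted p was 0.0127. With the cell line as a block the SE was 1.34 and the adjusted p 0.000181, and over 17 alternatives the adjusted p lay between 0.000181 and 0.0644.

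Onecut2, a cut-homeobox factor of hepatic, pancreatic and duct progenitors (ENSMUSG00000045991.19, chr18:64340020-64400987, plus strand), ranged from 559 to 28524 in parental samples (median 10543) and from 39.4 to 9437 in resistant samples (median 1162). It was lower in 5 of 6 lines, by 2.23-fold in #10 and up to 163-fold in #4. Line #9 went the other way, from 559 to 3756, which is 6.71-fold higher. The groups overlapped, and the log2 fold change of -3.63 (SE 1.51) did not pass the test, with an adjusted p of 0.112.

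The Foxa factors and Gata6 are pioneer factors that open chromatin in the endoderm. Foxa1 (ENSMUSG00000035451.7, chr12:57540628-57546916, minus strand) ranged from 86.3 to 875 in parental samples, with a median of 472, and from 19.4 to 2712 in resistant samples, with a median of 121. Foxa2 (ENSMUSG00000037025.11, chr2:148042877-148046969, minus strand) ranged from 1222 to 3026 in parental and from 136 to 5442 in resistant samples, with medians of 2644 and 1207.5. Both overlapped between the states, and each was lower in 4 lines and higher in 2. The higher lines were #4 and #9 for Foxa1, and #7 and #10 for Foxa2. In line #3 both factors were low in the resistant state, Foxa1 22.9-fold and Foxa2 14.9-fold below the parental sample. The adjusted p was 0.585 for Foxa1 (log2 fold change -1.11, SE 1.183) and 0.385 for Foxa2 (-1.41, SE 1.01).

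Gata6, a zinc finger factor of endoderm and pancreas (ENSMUSG00000005836.10, chr18:11052064-11085635, plus strand), was the tested factor with a positive log2 fold change. Its parental values ran from 45.0 to 3425 (median 1846) and its resistant values from 146 to 4327 (median 3963). Line #9 was lowest in both states, and the groups overlapped. Gata6 was 2.26-, 2.45- and 2.37-fold higher in resistant lines #3, #4 and #6, 3.26-fold in #9 and 1.08-fold in #10, and 1.89-fold lower in #7. The log2 fold change was 0.77 with an SE of 1.24 and an adjusted p of 0.733. Blocking on the cell line gave an SE of 0.31 and an adjusted p of 0.0828, so the difference was not called there either.

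Nr5a2, a nuclear receptor of acinar cells and early endoderm (ENSMUSG00000026398.14, chr1:136842571-136960448, minus strand), lay near the floor. It was above the floor in parental line #6 at 7.66, in P5 of line #3 at 9.20, and at P12 in line #3 at 64.7 and in line #10 at 10.6. In the resistant samples it was at 0 in 4 lines and at 0.99 and 0.62 in lines #7 and #10. Nr5a2 was lower in the resistant than in the parental sample of 6 of 6 lines, but in 5 of them both values were below the floor, and in line #6 it was at least 2.13-fold lower. At P12 it was at least 20.9-fold above the resistant sample in line #3.

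**Figure D2:**
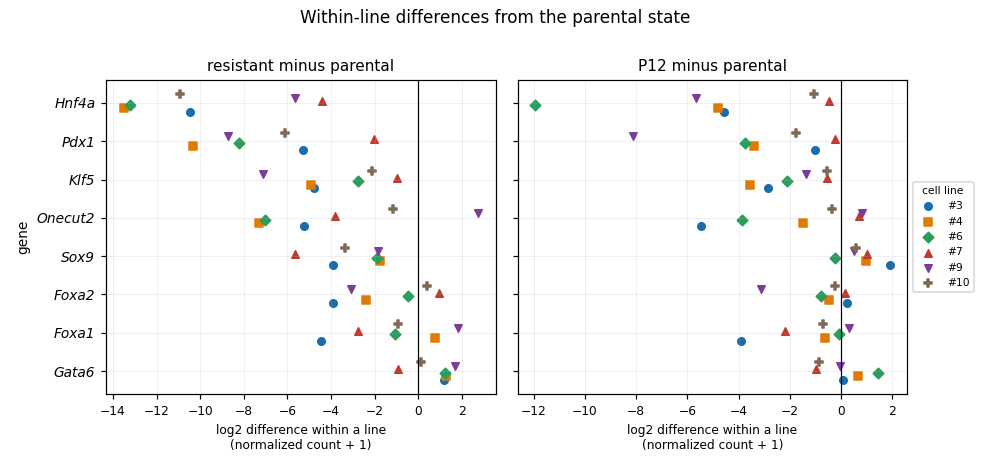
Difference in log2 of the normalized count plus 1 within each cell line, resistant minus parental in 1 panel and P12 minus parental in the other, for the 8 tested factors, with 1 point per line. Pdx1, Sox9, Klf5 and Hnf4a lie below 0 in all 6 lines in the resistant state, whereas Gata6 runs from -0.92 in line #7 to 1.68 in line #9.

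Reversal after drug withdrawal was addressed by setting P12 against resistant samples, and these share the resistant samples with the comparison above. Sox9 rose, and it was the single member called by limma, with or without the cell line as a block. Of all genes tested 1.28% were higher and 0.850% lower by the same rule, and 2.52% and 2.00% with the block. No factor was called lower, and at an unadjusted p below 0.05 there were 3 factors, Sox9, Pdx1 and Klf5, all higher, beside 19.8% of all genes in either direction. Sox9 was also the single factor whose P12 and resistant values did not overlap, as was the case for 1.39% of all genes in the upward direction. The median log2 fold change of the 8 factors was 1.97, against 0.02 for all genes.

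Sox9 ranged from 1002 to 3813 at P12 with a median of 2923. Every P12 sample was above the highest resistant sample at 679. The rise within a line was 3.17-fold in #6, 5.07-fold in #9, 6.51-fold in #4, 15.5-fold in #10, 56.5-fold in #3 and 101-fold in #7. These folds and those of the loss share the resistant sample of each line. On the log2 scale the difference was 3.84 (SE 0.62, limma adjusted p = 0.00117), higher in 6 of 6 lines. The call was lost without line #3 (limma adjusted p = 0.0158) or without line #7 (adjusted p = 0.01003), and when the fit held the compared states alone. Over 17 alternatives the adjusted p lay between 0.000573 and 0.0191.

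Pdx1 and Hnf4a at P12 differed widely between lines. Pdx1 stood at 1453 in line #7, 664 in #3, 547 in #10, 127 in #6, 121 in #4 and 2.42 in #9. Hnf4a stood at 11090 in #7, 7353 in #10, 414 in #4, 358 in #3, 1.47 in #6 and 0 in #9. Lines #7 and #10 were thus high for both factors and line #9 low for both, while line #6 had Pdx1 well above its floor and Hnf4a below it. Compared with the resistant state, Pdx1 was 3.49-fold higher in #7, 19.5-fold in #3, 21.3-fold in #10, 26.5-fold in #6 and at least 29.7-fold in #4. The log2 fold change of Pdx1 was 3.73 (SE 1.43, limma adjusted p = 0.136) and that of Hnf4a 4.95 (SE 2.48, adjusted p = 0.279), and neither passed the test.

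Klf5 and Onecut2 did not pass the test at P12. Klf5 at P12 ranged from 328 to 2704 with a median of 971, and it was above the resistant sample in 6 of 6 lines, by 1.34-fold in #7 and 56.7-fold in #9. Its log2 fold change of 1.93 had an SE of 0.82 and an adjusted p of 0.192. Onecut2 at P12 ranged from 260.3 to 45639 with a median of 1625, higher than in the resistant state in lines #4, #6, #7 and #10 and lower in #3 and #9. Line #3 stayed low after drug exposure, with 307, 274 and 260.3 in its resistant, P5 and P12 samples, against 11715 before. Onecut2, Foxa1, Foxa2 and Gata6 had adjusted p-values between 0.516 and 0.977, with log2 fold changes of 2.01, -0.11, 0.69 and -0.73.

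The 6 P12 samples were next set against the 6 parental samples, which are used in the first comparison as well. No factor was called by limma in either direction, beside 0.114% of all genes, and none with the line as a block, which called 0.311% of all genes lower. At an unadjusted p below 0.05 there were 2 factors, Pdx1 and Klf5, both lower, beside 15.3% of all genes in either direction. Klf5 at P12 did not overlap with the parental state, since its highest P12 value of 2704 in line #7 lay just below its lowest parental value of 2749 in line #9, and 0.731% of all genes were lower in this way. The median log2 fold change of the 8 factors was -1.42, against 0.03 for all genes.

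As a share of the parental value of the same line, P12 samples held 84.8% to 370% of Sox9 with a median of 171%, and 5 of 6 lines were above their parental value. Pdx1 had a median of 19.3%, with 7.36% to 84.9% in 5 lines and a P12 value below the floor in line #9. Hnf4a had a median of 3.87%, with 3.55% to 72.4% in 4 lines and P12 values below the floor in lines #6 and #9. Klf5 stood at 8.40% to 68.5% with a median of 30.7%. All 6 lines thus remained below their parental value for Pdx1, Hnf4a and Klf5, and for Pdx1 and Hnf4a line #7 was nearest to it. Gata6 stood at a median of 101%, Foxa2 at 78.4%, Foxa1 at 62.2% and Onecut2 at 56.2%. The differences of Pdx1 (log2 fold change -3.05, SE 1.43, limma adjusted p = 0.314), Hnf4a (-4.76, SE 2.48, adjusted p = 0.37) and Klf5 (-1.84, SE 0.82, adjusted p = 0.293) did not pass the test.

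P5 samples exist for lines #3, #7 and #9 and were set against the 6 resistant samples. Sox9 rose, beside 0.290% of all genes called higher by limma, and no other factor was called. At an unadjusted p below 0.05 there were 2 factors, Sox9 and Pdx1, both higher, beside 15.4% of all genes in either direction. Sox9 read 4056 in line #3, 3203 in #7 and 2919 in #9, all above the highest resistant sample, and 3.02% of all genes did not overlap in this direction. It was already above the parental value of the same line in all 3, at 486%, 167% and 121%. The log2 fold change was 4.37 (SE 0.77, limma adjusted p = 0.00534). The call was lost without any 1 of the 6 lines, and when the fit held the compared states alone, with or without the block. Over 17 alternatives the log2 fold change lay between 3.93 and 4.89 and the adjusted p between 0.00405 and 0.307. Leaving out P5 of lines #7 and #9, whose passage labels conflict, leaves 1 P5 sample, so that fit does not test the call.

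The other factors at P5 differed between the 3 lines. Pdx1 read 430.0 in #3, 846 in #7 and 13.9 in #9, and Hnf4a read 229, 9366 and 0.65 in the same order. Klf5 read 333, 2413 and 1048, and Foxa2 read 1860.4, 4003 and 85.1. Line #7 was highest and line #9 lowest for Pdx1, Hnf4a and Foxa2, whereas for Klf5 line #3 was lowest. None of these differences from the resistant state passed the test, with an adjusted p of 0.311 for Pdx1, 0.486 for Hnf4a, 0.438 for Klf5 and 0.996 for Foxa2.

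To order the factors within a state, values were divided by the length of the exons of each gene and given per kb. In parental samples the medians per kb were 2211 for Hnf4a, 1116 for Foxa2, 751 for Klf5, 708 for Pdx1, 649 for Onecut2, 373 for Sox9, 284 for Gata6, 142 for Foxa1 and 0.308 for Nr5a2. Neighbours in this order overlapped in their ranges over lines, except Foxa1 and Nr5a2. In resistant samples Gata6 came first with 609 per kb, then Foxa2 with 509, and then Klf5 with 74.3, Onecut2 with 71.6, Sox9 with 59.0, Foxa1 with 36.3, Pdx1 with 7.06 and Hnf4a with 0.520, all overlapping with their neighbours. By the medians Hnf4a went from the first to the eighth place and Gata6 from the seventh to the first. At P12 Foxa2 led with 956 per kb and Sox9 was next with 707, ahead of Gata6 with 293, Klf5 with 187, Pdx1 with 156, Onecut2 with 100.1, Hnf4a with 80.0 and Foxa1 with 44.3.

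How much of the variation lay between lines and how much between states was read from the 18 samples of the 3 states that all lines have, on the log2 scale. For Sox9 the state accounted for 68.9% of the variance and the line for 15.1%. Pdx1, Klf5 and Hnf4a also varied more by state, with 58.4%, 54.7% and 50.2%, against 26.3%, 23.1% and 35.9% by line. Gata6 was the opposite, with 92.1% by line and 2.92% by state. Foxa1 and Foxa2 varied mainly by line as well, with 67.0% and 55.7%, and Onecut2 was mixed with 40.9% by line and 26.1% by state. Over all genes tested the medians were 35.8% by line and 19.8% by state.

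Line #9 was set apart for Gata6, which was between 43.5 and 146 in its 4 samples and between 974 and 4970 in the 17 others. Hnf4a was at 50.04 in parental line #9 and below the floor in its 3 later samples. Foxa1, in contrast, was high in line #9, at 763 in the parental, 2712 in the resistant, 939 in the P5 and 936 in the P12 sample. Line #9 therefore had the lowest Gata6 and Hnf4a and nearly the highest Foxa1 among the parental samples, where line #10 had 875.

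Across the 21 samples, which share lines and states and so are not independent, Pdx1 and Hnf4a moved most closely together of the 28 pairs, with a Pearson r of 0.91 both before and after the mean of each line was removed. Pdx1 with Klf5 gave 0.77, Hnf4a with Klf5 0.72, Hnf4a with Onecut2 0.71, Hnf4a with Foxa2 0.71 and Pdx1 with Foxa2 0.70. Over all samples Sox9 was set apart from these, with 0.27 to Pdx1 and 0.24 to Hnf4a. After the line means were removed it gave 0.52 and 0.57. The pairs with Klf5, Onecut2 and Foxa2 then gave 0.76, 0.71, 0.75, 0.54 and 0.65 in the order above. On that scale Sox9 was thus not set apart from the pairs with Foxa2. The paralogs Foxa1 and Foxa2, which bind the same DNA motif, gave -0.27. Gata6 with Klf5 gave 0.02 over all samples and -0.77 after removal of the line means. After that removal Gata6 gave -0.67 with Hnf4a, -0.63 with Pdx1 and -0.55 with Foxa2. It gave -0.37 with Sox9, -0.36 with Onecut2 and 0.05 with Foxa1. Within lines Gata6 thus tended to be high where Klf5, Hnf4a, Pdx1 and Foxa2 were low. These values are descriptions and carry no test.

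**Figure D3:**
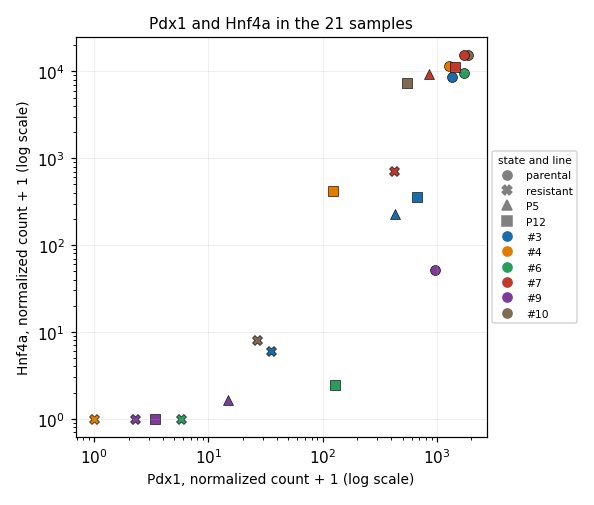
Hnf4a against Pdx1 in the 21 samples, both as normalized count plus 1 on log axes, with color for the cell line and shape for the state. Parental samples sit together at the top right except line #9, whose Hnf4a is 50.04, and resistant samples sit at the bottom left except line #7, with Pdx1 at 416 and Hnf4a at 713.

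The genes with the pattern most like each factor were sought among all genes tested by Pearson r over the 21 samples. For Pdx1 they were its antisense RNA Plut (0.96), the noncoding Gm27033 (0.95), which starts 4.87 kb from it, and Cdh1 (0.94), the adhesion protein E-cadherin. For Hnf4a they were Dhh (0.97), Fermt1 (0.93) and Itga2 (0.93), and after removal of the line means Mgst3 (0.97), Fabp2 (0.96) and Dhh (0.96). Fabp2 is the fatty acid binding protein of enterocytes. For Klf5 they were G3bp2, Epha2 and Eya2, each with 0.91, for Foxa2 Myo5c (0.95), Sytl2 (0.91) and Vill (0.91), and for Onecut2 Slc12a2 (0.92), Ikbkg (0.88) and Shc2 (0.88). Sox9 had lower values over all samples, with Ace (0.89), Gm30292 (0.88) and 5031415H12Rik (0.88), and after removal of the line means 5330411J11Rik (0.99), Irf2bp2 (0.95) and Cd38 (0.93). For Gata6 they were Gm10182 (0.96), its antisense RNA 1010001N08Rik (0.93) and Sh3d21 (0.92), and for Foxa1 its neighbor Ttc6 (0.90) at a distance of 17.2 kb, Hddc2 (0.87) and Maml1 (0.86).

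After removal of the line means neither 1010001N08Rik nor Ttc6 was among the 3 genes most like Gata6 and Foxa1, which were Rassf2 (0.89), Pde4b (0.88) and Wdyhv1 (0.88) for Gata6, and Aldh4a1 (0.88), Nepn (0.86) and Bcat2 (0.84) for Foxa1.

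Neighbors of the factors on the chromosome were read beside them. Plut overlaps Pdx1 on the other strand, and its median was 520 in parental, 10.8 in resistant and 230.3 in P12 samples. Gm27033 had medians of 77.4, 1.05 and 12.6 in the same order, and it fell by 5.04 in the resistant state (SE 1.14, limma adjusted p = 0.00592). Plut had a log2 fold change of -5.52 with an SE of 1.52 and an adjusted p of 0.0195, which did not pass the test. Next to Foxa2, at 2.67 kb, the long noncoding RNA 9030622O22Rik had medians of 608 in parental and 11.3 in resistant samples (log2 fold change -4.90, limma adjusted p = 0.0476). Next to Sox9, at 0.248 kb, the transcript BC006965 had medians of 9.77, 0.62 and 17.5 in parental, resistant and P12 samples, the resistant median being below the floor. It was not called in resistant against parental samples (limma adjusted p = 0.141) or in P12 against resistant samples (0.024), and in line #10 it read 1.58 in the parental and 7.27 in the resistant sample. The library kit keeps the strand, but the strand setting of the quantification is not given in the sources used here, so reads from Pdx1 and Plut, from Gata6 and 1010001N08Rik, and from Hnf4a and Hnf4aos cannot be told apart with certainty.

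Promoter sequences were at hand for 5 of the 9 factors, Pdx1, Hnf4a, Foxa1, Foxa2 and Nr5a2, from RefSeq on GRCm38.p6. Those of Pdx1 and Hnf4a are shown because these factors moved together, and those of Foxa1 and Foxa2 because these paralogs did not. Each is printed from 5′ to 3′ on the strand of its gene, up to the first exon, with motif matches in capitals. The Pdx1 sequence covers chr5:147269847-147269958 on the plus strand, inside the antisense gene Plut, and holds no searched motif, while the rest of its 300-base window, from the first exon on, holds an E-box. The Hnf4a sequence covers chr2:163506607-163506810 on the plus strand, inside the antisense gene Hnf4aos, and its capitals mark the GATA motif AGATAA at its end. It is the first of 2 promoters, and the window of the second holds an E-box and no GATA match. The Foxa1 sequence covers chr12:57546122-57546361 on the minus strand, within an intron of a longer transcript, and its capitals mark the FOXA motif TGTTTAC, read on the other strand, and the E-box CAGGTG. The Foxa2 sequence covers chr2:148045465-148045714 on the minus strand, within an intron of longer transcripts, and its capitals mark AGATAA. It is 1 of 3 Foxa2 promoters, and the windows of the other 2 hold no searched motif.
Pdx1 promoter: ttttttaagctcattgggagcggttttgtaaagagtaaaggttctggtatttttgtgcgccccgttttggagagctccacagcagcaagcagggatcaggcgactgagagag
Hnf4a promoter: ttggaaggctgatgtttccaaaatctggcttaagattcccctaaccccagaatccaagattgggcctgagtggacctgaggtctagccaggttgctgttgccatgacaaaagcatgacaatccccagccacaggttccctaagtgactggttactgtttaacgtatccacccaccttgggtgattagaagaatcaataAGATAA
Foxa1 promoter: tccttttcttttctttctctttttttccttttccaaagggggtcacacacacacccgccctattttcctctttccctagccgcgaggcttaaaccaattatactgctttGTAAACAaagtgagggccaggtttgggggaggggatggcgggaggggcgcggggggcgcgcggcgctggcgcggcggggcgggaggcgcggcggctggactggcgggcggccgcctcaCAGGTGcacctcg
Foxa2 promoter: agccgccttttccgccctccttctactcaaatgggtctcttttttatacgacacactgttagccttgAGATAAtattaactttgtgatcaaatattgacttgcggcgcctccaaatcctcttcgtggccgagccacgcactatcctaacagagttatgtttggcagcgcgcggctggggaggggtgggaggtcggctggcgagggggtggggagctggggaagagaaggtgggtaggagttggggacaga

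The same motifs were searched on both strands in windows of 300 bases around the start of 32851 RefSeq promoters. AGATAA was in 11.2% of them, CAGGTG in 20.2% and TGTTTAC in 3.65%. The AP-1 motif TGANTCA (7.81% of promoters), the ETS motif CCGGAAGT (3.89%), the HNF4 motif CAAAGTCCA (0.475%) and the NR5A2 motif TCAAGGTCA (0.423%) were in none of the 9 windows of these 5 genes. A match describes the letters of the window and says nothing about binding.

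Of 16 further transcription factors of foregut and hepatopancreatic development, 14 were tested. In resistant against parental samples 5 of them fell and none rose, beside 2.73% of all genes called lower and 2.57% higher. Under the block 8 were lower, beside 5.60% of all genes. The median log2 fold change of the 14 was -3.80, against -0.00 for all genes. At an unadjusted p below 0.05 there were 10, all lower, beside 29.2% of all genes in either direction. The 5 were Cdx2, Sox17, Foxa3, Onecut3 and Hhex, the last named after its values were seen. Cdx2, the intestinal homeobox factor, was between 669.6 and 2086 in parental samples, at 0 in resistant lines #4, #6, #9 and #10, at 1.03 in #3 and at 40.7 in #7, so the states were far apart. It fell by 8.99 on the log2 scale (SE 0.85, limma adjusted p = 3.12e-06).

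Cdx2 came back in part after drug withdrawal. It ranged from 27.9 to 381 at P12, with a median of 207, so every P12 sample lay below every parental sample (log2 fold change -2.88, limma adjusted p = 0.12). It rose by 6.11 against the resistant state (SE 0.85, limma adjusted p = 0.00031), above the resistant sample in each line. At P5 it rose as well (log2 fold change 5.73, limma adjusted p = 0.00753). Sox17, an endoderm and biliary factor, stayed low. It ranged from 0 to 1794 in parental samples with a median of 293, so not every parental line had it. Its median was 0 in resistant, P5 and P12 samples, with a highest P12 value of 1.88, below the floor. At P12 Cdx2 was the factor of the 14 called higher than in the resistant state, beside 1.28% of all genes. Under the block Hhex was called with it, beside 2.52% of all genes. No factor was lower in either fit. Against parental samples none of the 14 was called by limma at P12, beside 0.114% of all genes. At an unadjusted p below 0.05 there were 8, all lower, beside 15.3% of all genes in either direction. Under the block Sox17 and Foxa3 were lower, beside 0.311% of all genes. Gata4, the most abundant of the list, had medians of 1056 in parental, 2208 in resistant and 1053 in P12 samples (resistant against parental limma adjusted p = 0.275).

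Among 14 genes known as targets of these factors, 10 were tested. In the resistant state 1 fell and none rose, beside 2.73% of all genes called lower and 2.57% higher. With the cell line as a block 4 were lower, beside 5.60% of all genes. The median log2 fold change of the 10 was -3.07. At an unadjusted p below 0.05 there were 7, 6 of them lower, beside 29.2% of all genes in either direction. Acan, a cartilage proteoglycan gene under Sox9 control, was between 779 and 14755 in parental samples and between 0 and 5.98 in resistant samples (log2 fold change -10.95, SE 1.52, limma adjusted p = 0.000138). At P12 it ranged from 2.92 in line #3, where Sox9 was at 3086, to 5683 in line #10, where Sox9 was at 1002. The median of Acan was 1.47 in resistant and 214 in P12 samples, and the log2 fold change of 6.26 was not called (limma adjusted p = 0.0172, or 0.0106 with the block). Col2a1, another cartilage gene under Sox9 control, was at 2.18 in parental and 1.48 in resistant line #3, but at 9346 in its P5 and 8651 in its P12 sample. Over the 6 lines Col2a1 at P12 ranged from 2.21 to 8651 with a median of 134, and it was not called against the resistant state (limma adjusted p = 0.238). Col11a2, also a cartilage gene under Sox9 control and named after its values were seen, had medians of 43.7 in parental and 158 in resistant samples (log2 fold change 1.76, limma adjusted p = 0.143). Apob, a hepatic and intestinal gene under Hnf4a control and the most abundant of the list, was kept in resistant line #7 at 9465 and was between 0 and 15.8 in the other resistant lines. No gene of this list was called at P12 or P5.

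Other lineage programs were read from lists with few tested genes. Over all genes tested, 2.73% were called lower and 2.57% higher in the resistant state, or 5.60% and 4.85% with the block. At an unadjusted p below 0.05 there were 29.2% of all genes in either direction. The same shares hold for the lists that follow. Of 12 endocrine transcription factors 10 were in the table and 5 were tested, of which Insm1 was lower in the resistant state (log2 fold change -4.18, limma adjusted p = 0.00143) from a parental median of 15.7, and Pax6 was the most abundant. Of 9 acinar genes 4 were tested and none was called in the resistant state, while 2 had an unadjusted p below 0.05, 1 in each direction. Cela1 was the most abundant, and Ptf1a, the acinar and progenitor factor from whose locus Cre was made, was at 0 in 20 of 21 samples. At P12 no gene of these 2 lists was called by limma against resistant or parental samples. Under the block Prss2 was higher than in the resistant state, beside 2.52% of all genes.

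None of the 6 transcription factors of epithelial-mesenchymal transition was called by limma in the resistant state, with or without the block, and 1 had an unadjusted p below 0.05. Their median log2 fold change was 1.20. Prrx1, the most abundant, was at 6.20 to 55.6 in the 5 parental lines other than #9, which held 7078. It ranged from 66.0 to 6664 in resistant samples, with a median of 744 against 27.9 in parental samples (log2 fold change 3.94, limma adjusted p = 0.177, or 0.0305 with the block), and had a median of 2228 at P12. Among 6 squamous genes 3 were tested, none was called by limma, and 1 had an unadjusted p below 0.05. Krt14, the most abundant, was at 6213 in resistant line #3 and 4202 in resistant line #7, against a highest parental value of 91.8. Of 5 reference genes none was called, 2 had an unadjusted p below 0.05, both lower, and their median was -0.56. Gapdh, the most abundant, had medians of 67107 in resistant and 114280.0 in parental samples.

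Markers of cell types were read beside these results. Of 8 ductal and epithelial markers 7 were detected in parental samples, and Epcam was listed at 0 in 20 of 21 samples. Their summed normalized count was between 215899 and 295969 in 5 parental lines and 16039 in line #9. In the resistant state the sum was 60736 in #3, 75837 in #4, 64247 in #6, 211056 in #7, 1145 in #9 and 34543 in #10, and at P12 it was 33449.6, 48692, 53079, 209111, 629 and 140182 in the same order. Lines #7 and #10, with the most Hnf4a at P12, also had the highest sums there. Krt8 was the most abundant. Muc1 was called lower in the resistant state (log2 fold change -5.57, limma adjusted p = 0.00875), beside 2.73% of all genes. With the block 5 of the 7 tested markers were lower, beside 5.60% of all genes.

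Fibroblast and mesenchymal markers were higher in sum in the resistant sample of all 6 lines. For the 10 genes the sum was 127, 960.3, 599, 497, 25188 and 243 in parental lines #3, #4, #6, #7, #9 and #10. In the resistant samples it was 167127, 245285, 193045, 1940.2, 577899 and 30197, and at P12 it was 38015, 156419, 38509, 252, 78496 and 534, each in the same order of lines. Line #7 thus had the lowest sum in the resistant state and at P12 and the most Pdx1 and Hnf4a. Col1a1 was the most abundant, and Lum was at 0 in 14 of 21 samples. Of 9 tested genes Dcn was called higher (log2 fold change 11.003, limma adjusted p = 0.00116), beside 2.57% of all genes. Under the block Col1a1 and Col3a1 were called with it, beside 4.85% of all genes. The part of these markers in the results above was not tested.

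Of 6 immune markers 5 were in the table, and their sum was between 138 and 426 in every sample, with Cd68 the most abundant and Cd3e at 0 in 16 of 21. None of the 3 tested was called by limma in the resistant state, and 1 had an unadjusted p below 0.05. The sum of 5 endothelial markers was between 44.8 and 180.5 in parental and between 32.8 and 2757 in resistant samples, and Tek was the most abundant. Tek was higher in the resistant state (log2 fold change 5.90, limma adjusted p = 0.002) and lower at P12 than in the resistant state (-5.84, adjusted p = 0.00427), where under the block 1 other marker was higher, while Cdh5 was at 0 in 9 of 21 samples. Trp53, whose floxed alleles all lines carry, was between 178 and 475 in every sample and was not called. The part of these markers in the results was not tested either.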

How the data were processed

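RNA of 21 samples was measured by sequencing with a stranded TruSeq kit. The deposited signal values are DESeq2-normalized counts, which the authors made, per the labels, with CASAVA 2.17, bcl2fastq 2.19, Skewer, Salmon 0.12, TXImport and DESeq2 1.18. Genes with at least 10 normalized counts in at least 3 samples were kept, and log2 of the value plus 1 was fitted with limma 3.58.1 in R 4.3.3, with 4 states in 1 fit, a trend in the variance and Benjamini-Hochberg adjustment over all genes tested. The fit was run on simulated data with known changes. Their noise was independent between samples, without line effects, so they do not check the fit for samples that share a line. Tables and plots used Python 3.11.15, numpy 2.4.6, pandas 2.3.3 and matplotlib 3.10.9. Places and exon lengths came from GENCODE M21 (GRCm38).

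The members and the gene lists were chosen with earlier results of these data known. By rule, the text names every member, up to 4 called genes with the largest change per list, the most abundant gene of each list and the 3 genes most like each member. Other genes were named after their values were seen. Some genes, 1 further list and part of the genotype are not reported here. The lists hold further foregut, endocrine, acinar, epithelial-mesenchymal and squamous genes, known targets, reference genes and cell type markers. Samples of the same line correlated, after the mean of their state was removed, at 0.159 to 0.352 for parental with resistant, 0.337 to 0.520 for resistant with P12 and 0.00819 to 0.510 for parental with P12, where 5 of 6 lines were over 0.1, so the line as a block was an alternative. Other alternatives were the pseudocount, filter, scaling, variance trend, threshold, states in the fit and each line left out. After the data were seen, a fit without the P5 samples described as 12 passages and a block fit of the compared states were added. Sequencer models are not tied to samples, so no values within a sequencing batch were made.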

Additional observations from a re-analysis of the deposited data

Results flagged for a closer look

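A gap rule for single samples was applied to the normalized counts of 27 groups of 1 factor in 1 state. By chance about 1 in 20 groups would be marked if values were normally distributed, a rate that need not hold for counts. It marked resistant line #7 for Pdx1, at 416 against 0 to 34.0 in the other lines, and for Hnf4a, at 713 against 0 to 7.01. It also marked Foxa1 in resistant line #9, at 2712 against 19.4 to 455, Onecut2 in P12 of line #7, at 45639 against 260.3 to 16307, and Nr5a2 in P12 of line #3, at 64.7 against 0 to 10.6. On the log2 scale used for the tests, Hnf4a in resistant line #7 alone of these 5 passed the rule. No sample was removed. In the direction of the change from parental to resistant, Gata6 differed in line #7, with a log2 difference of -0.92 against 0.12 to 1.68 in the others. Onecut2 differed in line #9, with 2.75 against -7.31 to -1.16. Whether these lines differ from the others beyond chance was not tested, since each has 1 sample per state, and the cause was not tested.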

How the results depend on the processing

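Over the planned and added alternatives, leaving out 1 line gave 0 to 3 called factors in resistant against parental samples. It gave 0 to 1 in P12 against resistant and 0 in P5 against resistant samples. Such fits hold fewer samples, and the part of this in the counts was not tested. With a fit restricted to the samples compared, and with the replicate block added to that fit after the data had been seen, the counts were 0 in P12 against resistant and 0 in P5 against resistant samples. In resistant against parental samples both fits called 2 factors, Pdx1 and Hnf4a. Sox9 and Klf5 were lost there, with limma adjusted p-values of 0.0157 and 0.0143 without and 0.0105 and 0.0159 with the block. Without the P5 samples described as 12 passages, a fit chosen after seeing the data, the count in P5 against resistant samples was 0, but 1 P5 sample (line #3) is left there and the call is not tested. In the fit of all 4 states the paired replicate block added Hnf4a to the factors lower in the resistant state and changed no other call of a factor. The fit without the doubted P5 samples also called Hnf4a lower in resistant than in parental samples, beside Pdx1, Sox9 and Klf5. Signs reversed only for differences that were not called. In P12 against resistant samples Foxa1 ran from -0.32 to 0.18 as lines were left out, positive without line #4 (0.15) and #9 (0.18), and in P12 against parental samples Gata6 ran from -0.25 to 0.24, negative without #4 (-0.08) and #6 (-0.25). In P5 against resistant samples Foxa1 ran from -1.45 to 0.65 as lines were left out, the latter without #3, and Foxa2 from -1.11 to 1.12, with 0.19, 1.12 and 0.41 without #6, #9 and #10. Foxa2 there was 0.0811 with upper quartile scaling, 0.53 with the replicate block and 0.86 with the block in the restricted fit. Without the doubted P5 samples Gata6 was 0.76, Foxa2 1.09, Onecut2 -1.20 and Foxa1 -4.57, which set line #3 alone against 6 resistant lines. The cause was not tested. The results rest on 6 lines with 1 library per state and on bulk RNA, and the P5 state on 3 lines, of which 2 have conflicting passage labels. Nr5a2 was not tested, and without a filter its log2 fold change in resistant against parental samples was -1.48 (limma adjusted p = 0.297).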
